A study of Mus musculus with 2 samples.

Results

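Cytochrome P450 enzymes are haem proteins that insert an oxygen atom into fatty acids, steroids, vitamins, drugs and other foreign chemicals. Most of the mouse enzymes sit in the endoplasmic reticulum and take electrons from the reductase Por, while a few sit in mitochondria and take them through ferredoxin. In the kidney the family is known for making epoxides and omega-hydroxylated forms of arachidonic acid, which act on salt transport and vessel tone, and for switching vitamin D on and off. The family was taken as the protein-coding genes whose symbol is Cyp followed by a family number, a subfamily letter and a gene number, which gave 99 genes among 43346 gene rows. They belong to 16 families and 39 subfamilies. P450 genes named differently, such as Cyp51, fall outside the pattern and are described as partners.

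The study measured polyadenylated RNA from the kidney of 1 female C57BL/6J mouse, an inbred wild-type strain, aged 10 weeks and given no stated treatment. The single group held 2 libraries that the labels call technical replicates 2 and 1 of the same tissue sample, and the work on library 2 is dated to 2015. Expected counts, the estimated reads per gene, summed to 20720537 in library 2 and to 28263730 in library 1. The 37 mitochondrial genes and 10 nuclear copies of them took 36.5% of library 2 and 74.5% of library 1 on the TPM scale, a length-corrected share of each library. All 6 proximal tubule markers reached 1 TPM in both libraries, at a summed 5641 TPM in library 2 against 738 TPM in library 1. Of the hepatocyte markers, 4 of 6 reached 1 TPM in both, and the 6 summed to 53.0 TPM in library 2 against 9.78 TPM in library 1. Their highest mean was that of Ttr (31.55 and 2.49 TPM in libraries 2 and 1), followed by Serpina1a (10.48 and 2.18 TPM) and Alb (7.05 and 3.55 TPM). The lowest was that of Ahsg (0 and 0.08 TPM). None of 5 adrenal cortex markers reached 1 TPM in both, and they summed to 6.21 TPM in library 2 against 1.75 TPM in library 1. Every SD below is over n = 2 libraries and holds no variation between animals. For a low level in a whole-tissue sample, few cells of a type and little RNA per cell cannot be told apart. The labels give both libraries the same biological replicate number. Whether the material behind them differs in cell make-up was not tested.

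The kidney RNA of the family was held by a small number of fatty acid enzymes, while most of the genes were near 0. In library 2, 34 of the 99 genes reached 1 TPM, and in library 1 it was 29. Both libraries placed 28 genes at 1 TPM or more, which is 28.28% of the family against 41.7% of the 21474 protein-coding genes. Another 6 genes reached it only in library 2 and 1, Cyp3a11, only in library 1. Of the 64 genes under 1 TPM in both, 44 had a count in at least 1 library and 20 had none. The 7 genes with a mean of at least 100 TPM all come from the Cyp2j, Cyp4a, Cyp4b and Cyp2d subfamilies.

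**Figure D1:**
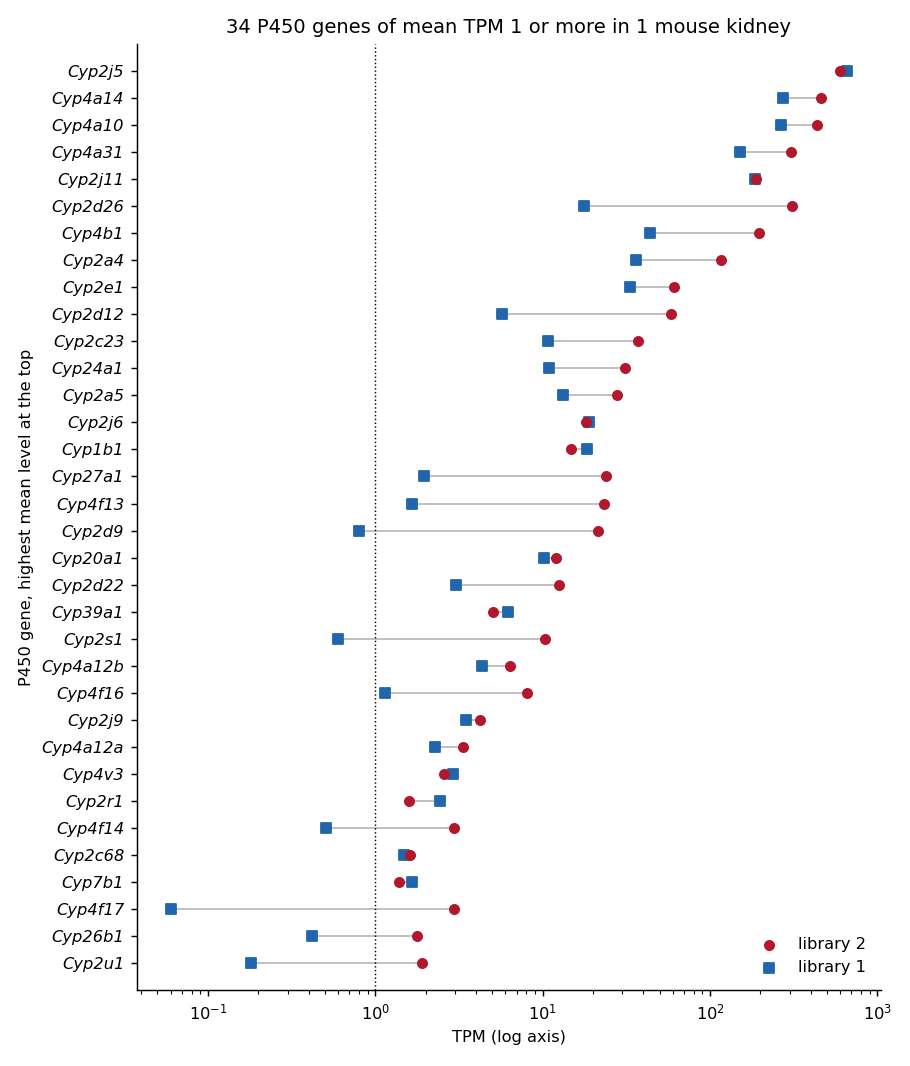
Level in TPM, on a log axis, of the 34 P450 genes with a mean of at least 1 TPM, with library 2 as red circles and library 1 as blue squares and a dotted line at 1 TPM. The symbols of Cyp2j5, Cyp2j11 and Cyp2j6 nearly coincide, whereas those of Cyp2d26, Cyp2d9 and Cyp4f17 lie more than 10-fold apart.

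Cyp2j5, an arachidonic acid epoxygenase of mouse kidney, had the highest level at 599 TPM in library 2 against 656 TPM in library 1. Its mean of 627.5 ± 39.7 TPM (SD, n = 2) lay above both values of every other member. Cyp4a14 and Cyp4a10, omega-hydroxylases of fatty acids, came next. Cyp4a14 stood at 460 and 273 TPM in libraries 2 and 1, and Cyp4a10 at 434 and 265 TPM, so the ranges of the pair overlapped. Cyp4a31, of the same subfamily, had 304 TPM in library 2 against 151 TPM in library 1. A short transcript of 533 bases gave 99.7 TPM of this in library 2 and 0 in library 1. By expected counts the gene had 7702 in library 2 against 10550 in library 1. Cyp2j11 had 187 TPM in library 2 against 186 TPM in library 1, nearly equal on the TPM scale. These 5 genes held 65.97% of the summed P450 TPM in library 2 and 85.4% in library 1.

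Below them the libraries parted. Cyp2d26 had 307 TPM in library 2, beside Cyp4a31, against 17.8 TPM in library 1. Cyp4b1, an omega-hydroxylase that also activates plant toxins, had 196 TPM in library 2 against 43.7 TPM in library 1. Cyp2a4, a testosterone hydroxylase of the mouse, had 116 TPM in library 2 against 36.3 TPM in library 1. Cyp2e1, the ethanol-oxidising enzyme, had 60.6 and 33.5 TPM in libraries 2 and 1, and Cyp2d12 had 58.7 and 5.72 TPM. Cyp2c23, an arachidonic acid epoxygenase of the kidney, had 37.0 TPM in library 2 against 10.8 TPM in library 1. In each of these genes library 2 was higher in TPM, by very different factors. TPM is a share of a library that in library 1 went mostly to mitochondrial RNA. With those genes and their copies left out, Cyp2e1 turned to 95.5 TPM in library 2 against 131 TPM in library 1, and so did Cyp4a14 (724 against 1072 TPM) and Cyp4a10 (684 against 1039 TPM). Cyp2j5, nearly level before, stood at 945 TPM in library 2 against 2574 TPM in library 1, and Cyp2j11 at 295 against 729 TPM. Cyp2d26 stayed higher in library 2, at 484 against 69.8 TPM.

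The other genes with a mean of at least 10 TPM fell into the same kinds. In TPM, levels were close in Cyp2j6 (18.2 TPM in library 2 against 18.9 TPM in library 1) and in Cyp20a1 (12.0 and 10.2 TPM). They were also close in Cyp1b1, which oxidises oestrogens and polycyclic hydrocarbons (14.8 and 18.5 TPM). With mitochondrial genes and their copies left out, library 1 was higher in each. Libraries 2 and 1 then stood at 28.6 and 74.0 TPM for Cyp2j6, 23.3 and 72.8 TPM for Cyp1b1, and 18.8 and 40.2 TPM for Cyp20a1. Levels were far apart in Cyp4f13 (23.2 TPM in library 2 against 1.66 TPM in library 1) and in Cyp2d9, a testosterone hydroxylase (21.5 and 0.8 TPM). The 15 genes with a mean between 1 and 10 TPM ran between Cyp2d22 at the top (12.5 TPM in library 2 against 3.04 TPM in library 1) and Cyp2u1 at the bottom (1.90 and 0.18 TPM). Just under a mean of 1 TPM stood Cyp2c69 (0.92 and 0.80 TPM). Among the 34 genes of mean TPM at least 1, Spearman's rho between the libraries was 0.81 across genes, which are not independent replicates.

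Cyp2a4 and Cyp2a5, a coumarin hydroxylase of the same subfamily on chromosome 7, show how alike members can be. Their reference transcripts match at 98.2% identity, and of 1482 coding bases 23 differ. Cyp2a5 had 28.0 TPM in library 2 against 13.3 TPM in library 1. Codon 209, the only codon of exon 4 at which the pair encodes different amino acids, is known from mouse enzyme work to set whether the protein prefers steroid or coumarin. The stretches below are from the GENCODE transcripts on mm10, plus strand, at chr7:26309038-26309082 and chr7:26837201-26837245, with codon 209 in capitals. They differ at 2 of 45 bases.
Cyp2a4: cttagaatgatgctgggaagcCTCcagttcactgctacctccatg
Cyp2a5: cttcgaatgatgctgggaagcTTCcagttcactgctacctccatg

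The likeness of the pair goes on before their start sites. The 100 bases before each start, from RefSeq on GRCm38.p6 at chr7:26307092-26307191 and chr7:26835239-26835338, plus strand, differ at 2 of 99 positions once shifted by 1 base. Capitals mark TATAAA, a core promoter element, 28 bases before the RefSeq start of Cyp2a4 and 29 before that of Cyp2a5. In GENCODE the genes begin at chr7:26307169 and chr7:26835305, inside these stretches.
Cyp2a4 promoter: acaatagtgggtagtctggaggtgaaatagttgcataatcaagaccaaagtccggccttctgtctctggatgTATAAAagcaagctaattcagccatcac
Cyp2a5 promoter: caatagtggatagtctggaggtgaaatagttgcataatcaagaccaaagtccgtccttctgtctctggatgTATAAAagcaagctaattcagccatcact
Cyp2a4 had a mean level of 76.0 ± 56.1 TPM, against 20.6 ± 10.4 TPM for Cyp2a5 (SD, n = 2 each), and was the higher of the pair in both libraries. With transcripts this alike, the division of reads between the pair is an estimate, and their sum is the safer value. The Cyp2a subfamily held 144 TPM in library 2 against 49.6 TPM in library 1, nearly all of it from this pair. In library 1 a short Cyp2a5 transcript of 442 bases gave 7.49 TPM of that sum. In all, 24 members share a stretch of at least 95% identity over at least 50% of their transcript with another gene, 7 of them of mean TPM at least 1. Cyp4a10 does so with Cyp4a32 (97.2%) and Cyp4a31 (95.3%), Cyp4a12a with Cyp4a12b (98.3%), Cyp4f16 with Cyp4f37 (95.9%), and Cyp2c68 with Cyp2c40, Cyp2c67 and Cyp2c69.

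P450 genes lie in tandem arrays, and 72 of the 99 fell into 8 clusters of at least 3 genes with gaps under 1 Mb, the other 27 lying apart. Within a cluster a few genes held nearly all the RNA. The Cyp4a, Cyp4b and Cyp4x cluster at chr4:115106323-115647723 (mm10) summed to 1403 TPM in library 2 against 740 TPM in library 1 from 10 genes. Cyp4a14, Cyp4a10, Cyp4a31 and Cyp4b1 stand together at one end of it, broken by Cyp4a32 at 0.43 and 0.38 TPM. With mitochondrial genes and their copies left out, Cyp4a14, Cyp4a10 and Cyp4a31 were higher in library 1 and Cyp4b1 in library 2. Cyp4a31 then had 478.5 TPM in library 2 against 593.6 TPM in library 1, and Cyp4b1 had 308.3 and 171.7 TPM. Cyp4a12a and Cyp4a12b, known as androgen-dependent in mouse kidney, had 3.35 and 6.42 TPM in library 2 and 2.29 and 4.37 TPM in library 1 in this female.

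The Cyp2j cluster at chr4:96027534-96664154 summed to 810 TPM in library 2 against 865 TPM in library 1 from 8 genes. Cyp2j5 and Cyp2j11 led it, while Cyp2j9 had 4.23 and 3.49 TPM in libraries 2 and 1. The Cyp2d cluster at chr15:82370527-82794294 had 8 genes. It summed to 400 TPM in library 2 against 27.4 TPM in library 1, or 13.3% and 1.53% of the family. The Cyp2a, Cyp2b, Cyp2f, Cyp2g, Cyp2s and Cyp2t cluster at chr7:25802475-27158668 had 13 genes and summed to 155 TPM in library 2 against 50.4 TPM in library 1. The Cyp4f cluster at chr17:32452723-32947402, whose known members hydroxylate leukotrienes and fatty acids, summed to 37.5 TPM in library 2 against 3.37 TPM in library 1 from 8 genes.

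Other clusters were nearly empty. The 14 Cyp2c genes at chr19:39007019-40187333 summed to 2.83 TPM in library 2 against 3.58 TPM in library 1. Cyp2c68 led them with 1.62 TPM in library 2 against 1.49 TPM in library 1. Cyp2c23, the abundant kidney epoxygenase, is a Cyp2c gene outside this cluster. The 8 Cyp3a genes at chr5:145345279-146113287, which include major drug-metabolising enzymes of the liver, summed to 0.41 TPM in library 2 against 1.25 TPM in library 1, led by Cyp3a11 at 0.37 and 1.01 TPM. In the 3-gene cluster of chromosome 9, Cyp1a1, an enzyme induced through the receptor Ahr, had 0.63 and 0.33 TPM. Cyp1a2 beside it had no count.

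**Figure D2:**
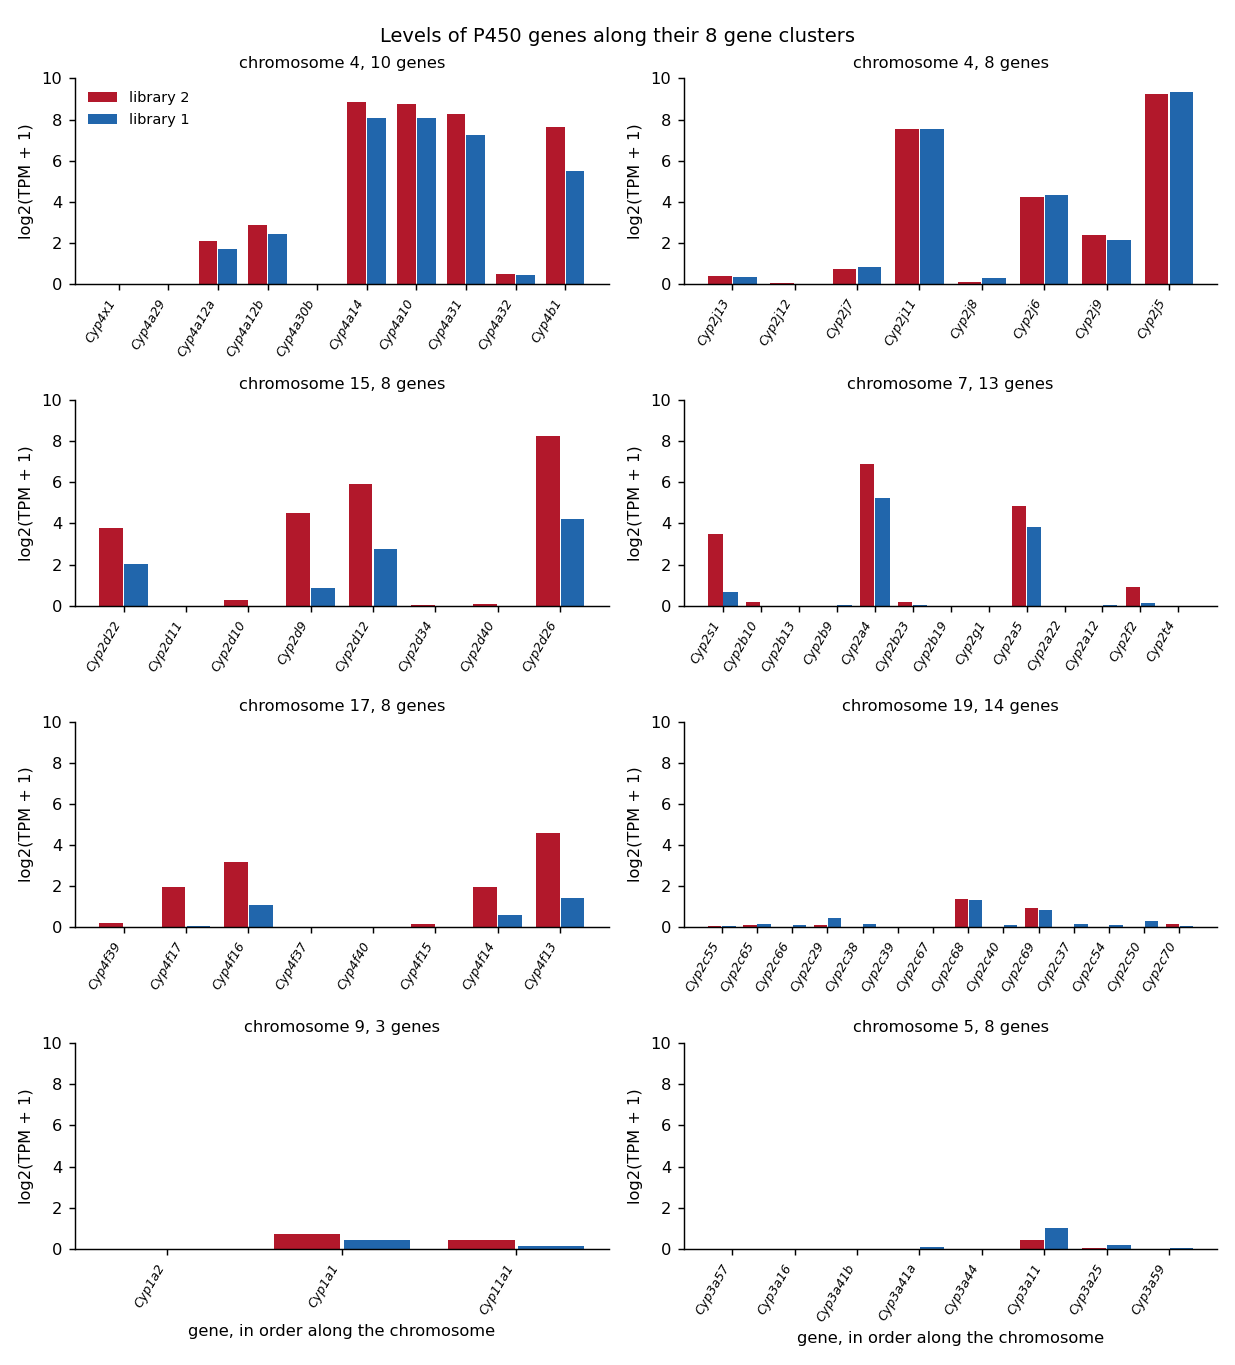
Level, as log2(TPM + 1), of every gene in the 8 P450 clusters in chromosome order, with library 2 in red to the left of library 1 in blue. Tall bars are limited to a few genes per cluster, and the Cyp2c genes of chromosome 19 and the Cyp3a genes of chromosome 5 stay under 2 TPM.

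The 20 genes with no count in either library were Cyp11b2, Cyp19a1, Cyp1a2, Cyp26c1, Cyp2a22, Cyp2b13, Cyp2b19, Cyp2c39, Cyp2d11, Cyp2g1, Cyp2t4, Cyp2w1, Cyp3a16, Cyp3a41b, Cyp3a44, Cyp3a57, Cyp4a29, Cyp4a30b, Cyp4f37 and Cyp4f40. With 0 counted, up to 3 counts remain possible per library by counting error alone. Among them, Cyp3a41b matches the counted gene Cyp3a41a at 99.7% identity, and Cyp4f37 matches the counted gene Cyp4f16. Cyp4a29 and Cyp4a30b match only the pseudogenes Cyp4a28-ps (95.6%) and Cyp4a30-ps (97.4%).

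Several of the nearly silent Cyp2c and Cyp3a genes share a known sequence before their RefSeq starts. RefSeq windows of 250 bases before the start were at hand for 76 of the 99 genes, 86 windows in all. They cover 13 of the 19 genes with a mean of at least 10 TPM, and Cyp4a14, Cyp4a10, Cyp4a31, Cyp2d12, Cyp2c23 and Cyp24a1 were not searched. The letters CAAAGTCCA, a sequence bound by the nuclear receptor Hnf4a, were searched on both strands. They occurred in 11 of the 86 windows (12.8%), against 0.384% of all 32851 windows. The 11 belong to 11 genes, 6 of them Cyp2c and the rest Cyp3a11, Cyp3a16, Cyp3a41a, Cyp3a41b and Cyp8b1. None of the 11 has a mean level of 10 TPM, which 13 of the 76 genes searched have, and 1, Cyp2c68, passes 1 TPM. Whether the motif goes with a low level was not tested. Members of an array share ancestry, so these windows are not independent. TATAAA occurred in 34.9% of the P450 windows and 12.4% of all windows. AGGTCA, a nuclear receptor half-site, occurred in 22.1% and 14.0%.

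Examples are printed to show the motif in the Cyp2c and Cyp3a arrays and in Cyp8b1, which lies outside the clusters. They are read in the gene's direction, from GRCm38.p6, minus strand, with CAAAGTCCA in capitals. They lie at chr19:39741158-39741190 (Cyp2c68), chr19:39886824-39886856 (Cyp2c69), chr19:40187330-40187362 (Cyp2c70), chr5:145879943-145879975 (Cyp3a11) and chr9:121916352-121916384 (Cyp8b1).
Cyp2c68: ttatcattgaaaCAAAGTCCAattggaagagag
Cyp2c69: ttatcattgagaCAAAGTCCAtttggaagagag
Cyp2c70: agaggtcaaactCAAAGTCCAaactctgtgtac
Cyp3a11: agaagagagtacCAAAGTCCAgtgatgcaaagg
Cyp8b1: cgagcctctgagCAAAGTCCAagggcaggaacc
The motif starts 77, 75, 64, 109 and 67 bases before the RefSeq start in that order. In GENCODE, Cyp3a11 begins further upstream, at chr5:145879964 on the minus strand, so its motif lies inside the annotated gene. The match is a description of letters and says nothing on binding in this kidney.

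Of the 4 vitamin D enzymes, 3 reached 1 TPM in both libraries. Cyp24a1, which inactivates the hormone, had 31.0 TPM (1721 counts) in library 2 against 10.95 TPM (1139 counts) in library 1. Cyp27b1, which makes the active hormone in the proximal tubule, had 0.84 TPM (31 counts) in library 2 against 0.15 TPM (10 counts) in library 1. Cyp24a1 was thus far above Cyp27b1 in both libraries. Cyp27a1, a mitochondrial sterol hydroxylase of both vitamin D and bile acid synthesis, had 24.1 TPM in library 2 against 1.96 TPM in library 1. Cyp2r1, the vitamin D 25-hydroxylase known mainly from liver, had 1.59 and 2.43 TPM. The receptor gene Vdr had 87.1 TPM in library 2 against 20.5 TPM in library 1.

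Among the genes of sterol breakdown, oxysterol hydroxylases were present and those of the liver's main bile acid route were near 0 in counts. Cyp39a1, an oxysterol hydroxylase, had 5.05 TPM in library 2 against 6.2 TPM in library 1, and Cyp7b1, another, had 1.38 and 1.66 TPM. Cyp46a1, the cholesterol hydroxylase of neurons, had 0.54 and 0.02 TPM. Cyp7a1, the rate-limiting enzyme of bile acid synthesis, had 0 counts in library 2 and 2 counts in library 1, and Cyp8b1 had 1 and 0. The deposited upper bound for Cyp7a1 was 3.1 TPM in library 2 and 1.83 TPM in library 1, so its level is uncertain.

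Retinoic acid and steroid enzymes were low. Of the retinoic acid hydroxylases, Cyp26b1 had 1.78 TPM in library 2 against 0.42 TPM in library 1, Cyp26a1 had 0.15 and 0.08 TPM, and Cyp26c1 had no count. All 6 enzymes of steroid hormone synthesis stayed under 1 TPM in both libraries. Cyp11a1, which opens the pathway, had 0.34 TPM in library 2 against 0.1 TPM in library 1, Cyp17a1 had 0.34 and 0.02 TPM, and Cyp11b1 had 0.22 and 0.12 TPM. Cyp21a1, the adrenal steroid 21-hydroxylase, had 17 counts in library 2 and none in library 1. Its transcript shares 97.4% identity over 57.4% of its length with the pseudogene Cyp21a2-ps.

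Most partners of the enzymes were expressed in both libraries. Por had 125 TPM in library 2 against 15.2 TPM in library 1. Cyb5a, which donates electrons to some P450 enzymes, had 956 and 363 TPM. For the mitochondrial enzymes, Fdx1 had 71.1 TPM in library 2 against 16.5 TPM in library 1, and its reductase Fdxr had 8.57 and 0.52 TPM. Ephx2, the soluble epoxide hydrolase that opens arachidonic acid epoxides, had 128 TPM in library 2 against 62.9 TPM in library 1, and the microsomal Ephx1 had 39.0 and 5.52 TPM. In haem synthesis, 7 of 8 genes reached 1 TPM in both libraries, and Alas1, the enzyme of the first step, had 113 and 10.4 TPM. Of P450 genes outside the symbol pattern, Cyp51 of cholesterol synthesis had 102 TPM in library 2 against 91.8 TPM in library 1. Tbxas1, which makes thromboxane, had 10.99 and 2.43 TPM, and Ptgis, which makes prostacyclin, had 5.18 and 0.17 TPM. Among the 8 transcription regulators of P450 genes, Hnf4a had 224 TPM in library 2 against 34.2 TPM in library 1 and Ppara had 25.2 and 4.85 TPM. Nr1i3, the xenobiotic receptor known from liver, had 0.33 and 0.02 TPM.

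Relative to the bulk of genes, 3 of 4 Cyp2d and 4 of 4 Cyp4f genes compared were higher in library 2, as were 35.7% of all genes tested. All 7 Cyp2j genes compared and all 4 Cyp2c genes compared in the chromosome 19 cluster were higher in library 1, as were 25.2% of all genes tested, though with total-count scaling 0 and 2 of them were. Counts were compared after TMM scaling, which lines up the bulk of genes in the libraries, with a two-sided exact binomial test adjusted by Benjamini-Hochberg over all genes. Calls needed a log2 ratio of library 2 over library 1 of at least 1 in size and an adjusted p under 0.05. The test compares 2 libraries of 1 sample and covers counting error only. With at least 10 counts over both libraries, 51 members were compared and 48 were not. Of the 51, 15 were called higher in library 2 (background 35.7% of 15553 genes), 18 higher in library 1 (background 25.2%), and 18 were not called. The median log2 ratio was -0.46 over the members and 0.12 over all genes tested.

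The Cyp2j genes were called higher in library 1 although Cyp2j5 was nearly equal in TPM, since TMM scaling and TPM set the libraries level in different ways. Cyp2j5 had 21261 counts in library 2 and 43576 in library 1, a log2 ratio of -1.49 (95% counting interval -1.52 to -1.47), or -0.59 and not called when scaled by total counts. In the chromosome 19 Cyp2c cluster, Cyp2c68 had 41 counts in library 2 and 71 in library 1, a log2 ratio of -1.24. Scaled by total counts, all 4 Cyp4f and all 4 Cyp2d genes compared were called higher in library 2, as were 49.4% of all genes tested. None of the 6 Cyp4a genes compared was called, and their median log2 ratio was -0.73, while with total counts it was 0.18 and again none was called.

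By role, the 4 vitamin D genes gave 2 calls toward library 2 (Cyp27a1 at a log2 ratio of 2.10 and Cyp27b1 at 1.13) and 1 toward library 1 (Cyp2r1), with Cyp24a1 at 0.14 not called. Of the 6 genes of sterol breakdown 4 were compared, with Cyp27a1 and Cyp46a1 called toward library 2 and Cyp7b1 and Cyp39a1 toward library 1. Cyp21a1 gave the single call among 4 steroid hormone genes compared, toward library 2, and Cyp26b1, the retinoic acid gene compared, stood at 0.72 and was not called. Among partners, 3 of 6 electron donor genes (Por, Cyb5r3 and Fdxr) and 5 of 8 haem synthesis genes were called toward library 2, while Cpox (-1.01) of haem synthesis was called toward library 1. Over all genes tested, 35.7% were called toward library 2 and 25.2% toward library 1.

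The largest ratios toward library 2 among genes of mean TPM at least 1 were those of Cyp4f17, Cyp2d9, Cyp2s1, Cyp2d26 and Cyp4f13. Cyp4f17 had 73 counts in library 2 and 3 in library 1, a log2 ratio of 3.94 (interval 2.54 to 6.46). Cyp2d9 had 518 and 36 counts (log2 ratio 3.37, interval 2.90 to 3.92). Cyp2d26, which rests on 7354 counts in library 2 and 798 in library 1, had a log2 ratio of 2.75 (2.64 to 2.86). Cyp2s1 had 439 and 47 counts and Cyp4f13 had 538 and 66.

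Among genes of mean TPM at least 1, the largest ratios toward library 1 belonged to Cyp2r1, Cyp1b1, Cyp39a1, Cyp7b1 and Cyp4v3, with log2 ratios of -1.87, -1.69, -1.66, -1.61 and -1.50. Cyp1b1 rests on 1202 counts in library 2 and 2825 in library 1, and Cyp2r1 on 32 and 86. None of the 5 was called when scaled by total counts. That scaling moves the median of all genes by 0.90 on the log2 scale. With it, 22 members were called higher in library 2 (background 49.4%) and 4 higher in library 1 (background 4.62%), and the median over members was 0.45, against 1.03 over all genes. Cyp3a11, with 13 counts in library 2 and 67 in library 1, was called higher in library 1 under both scalings.

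GC content of the transcript ran in parallel with the ratio. Over 49 members with both values Spearman's rho was 0.94 (Pearson's r 0.91), and over 14801 genes rho was 0.89. These are correlations across genes, which share the same libraries. The 14 members called higher in library 2 that had a GC value had transcripts of 51.4% to 58.5% GC (median 53.7%), and the 18 called higher in library 1 had 41.0% to 46.4% (median 42.9%). The ranges did not overlap. GC ranges of all genes called were not taken, so the gap is not read as particular to the family. Some arrays are narrow in GC content: the Cyp2d genes lie between 52.0% and 55.0%, the Cyp2j genes between 42.7% and 46.4%, and the chromosome 19 Cyp2c genes between 39.6% and 43.5%. The chromosome 7 cluster is wider, at 47.5% to 56.6%, and the Cyp4a, Cyp4b and Cyp4x cluster runs between 45.8% and 51.4%. The part of GC content in single ratios was not tested beyond removing the trend fitted over all genes.

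With that trend removed, 3 of 49 members were called higher in library 2 (background 11.4%) and 3 higher in library 1 (background 10.9%), and all 6 had been called in the same direction before. The 3 higher in library 2 all lie in the Cyp2d array, Cyp2d9, Cyp2d12 and Cyp2d26, with log2 ratios of 1.75, 1.11 and 1.02. Cyp2d22, in the same array and of 52.7% GC, stood at -0.49 and was not called. The 3 higher in library 1 were Cyp3a11 (-1.19), Cyp2c29 (2 counts in library 2 and 18 in library 1) and Cyp2c50 (0 and 11 counts). The median over members was then -0.11, and -0.02 over all genes. No vitamin D, sterol or steroid hormone gene kept a call. Among haem synthesis genes Alad and Urod stayed called toward library 2, and among electron donors Cyb5r3 turned to a call toward library 1 (-1.51).

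**Figure D3:**
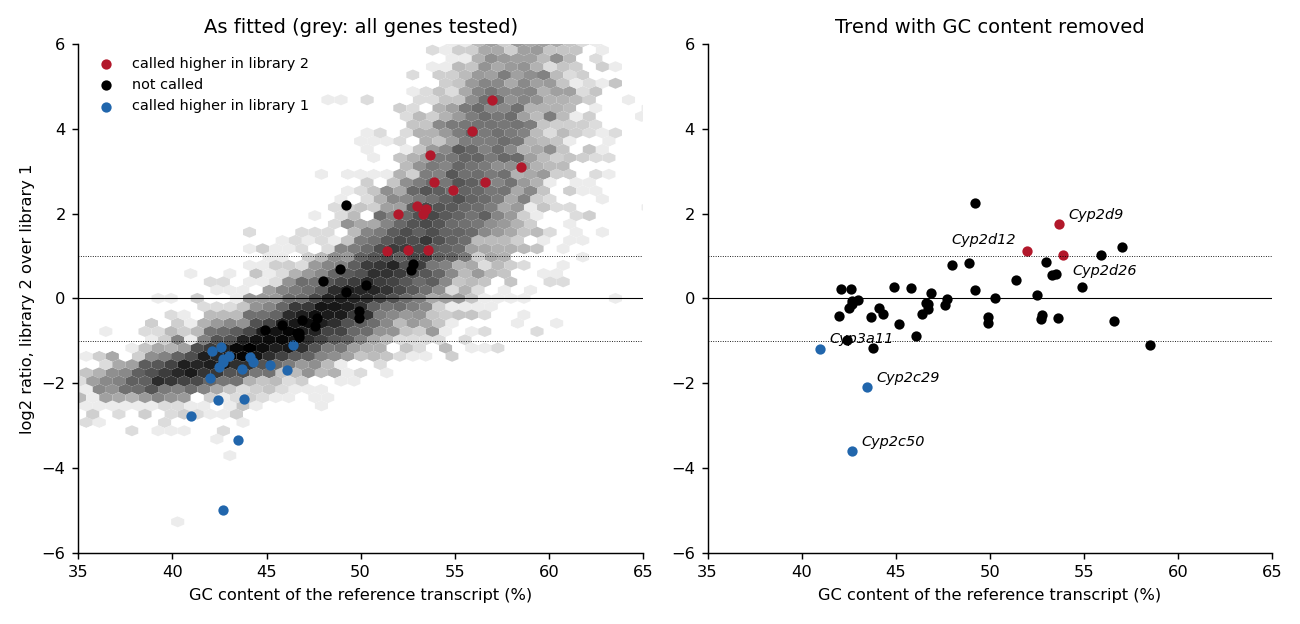
Log2 ratio of library 2 over library 1 against the GC content of the reference transcript for the 49 P450 genes with both values, coloured by call, as fitted on the left over all genes tested in grey, and with the trend removed on the right. On the left most P450 genes lie along the grey band, and on the right 6 keep a call, among them Cyp2d9, Cyp2d12 and Cyp2d26.

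The libraries also differed in which transcripts they assigned to a gene. Of the 34 genes with a mean of at least 1 TPM, 15 had 2 or more transcripts in the tables, and 10 of these had the same leading transcript in both libraries. Cyp4b1 had 98.5% of its RNA assigned to the coding transcript Cyp4b1-201 in library 2 and 13.7% in library 1. Cyp4b1-202, annotated as a target of nonsense-mediated decay, held 0.37% in library 2 and 86.1% in library 1. The pair of transcripts has 51.4% and 49.5% GC.

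Cyp4f13 showed the same kind of difference. Its coding transcript Cyp4f13-201 held 81.4% in library 2 and 9.46% in library 1, while the decay-annotated Cyp4f13-203 held 1.15% in library 2 and 57.7% in library 1. For Cyp20a1 the coding transcript Cyp20a1-201 held 100% in library 2 and 42.6% in library 1, where a retained-intron transcript held 35.7%. For Cyp2a5 the full transcript Cyp2a5-201 held 100% in library 2 and 42.6% in library 1, where a short transcript of 442 bases held 56.5%. The shares are corrected for length: in library 1 the full transcript had 317.6 expected counts and the short transcript 57.8. In Cyp4a31 a short transcript of 533 bases held 32.8% in library 2 and 0% in library 1. It rested on 562 counts in library 2, where Cyp4a31-201 had 4610. Total TPM of these genes includes all their transcripts. The level of the full coding transcript of Cyp4b1 thus differs between the libraries by more than the gene's own TPM does. The same holds for Cyp20a1-201, at 11.95 TPM in library 2 against 4.37 TPM in library 1, and for Cyp2a5-201, at 27.98 and 5.65 TPM. The authors' posterior mean counts, which carry an SD for the division of reads within 1 library, gave Cyp4b1-201 5391 ± 11.3 counts in library 2 against 316 ± 25.6 in library 1. They gave Cyp4b1-202 19.8 ± 9.7 counts in library 2 against 1514 ± 25.6 in library 1. Cyp4f13 is far less certain: in library 1 its coding transcript had 10.8 ± 7.2 and its decay-annotated transcript 19.8 ± 11.0 counts, and the posterior estimate of the share of Cyp4f13-203 there was 25.1%. Cyp20a1-201 in library 1 had 258 ± 69.9 counts. No transcript share was tested between the libraries.

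**Figure D4:**
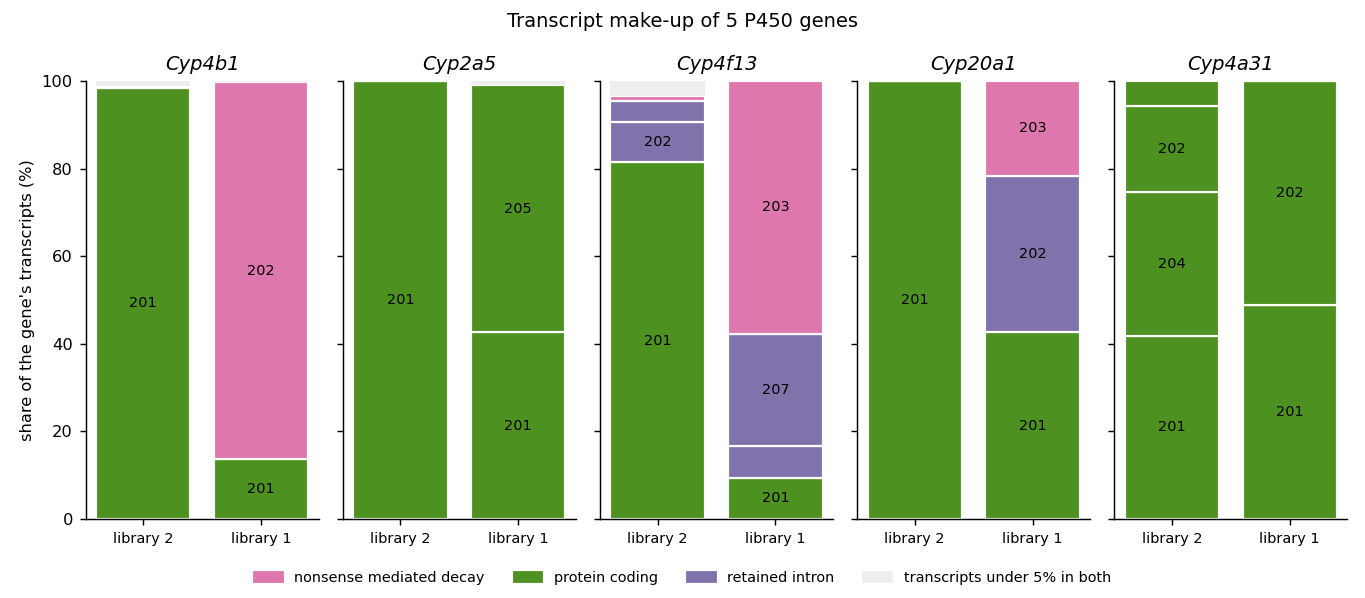
Share, in percent, of each annotated transcript in the RNA of 5 P450 genes, with library 2 to the left of library 1, coloured by annotated transcript type and marked with the transcript's number. Cyp4b1 is almost wholly Cyp4b1-201 in library 2 and mostly Cyp4b1-202 in library 1.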

How the data were processed

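Kidney RNA of 1 mouse was sequenced in 2 libraries after RNeasy extraction, with a stated size range of 350 to 450, per the labels. The text deposited with the tables names mm10 and annotation M4; which tools aligned and quantified the reads is not stated there. Expected counts and posterior mean counts were deposited by the authors without normalization, and TPM and FPKM values were deposited scaled per library, per the file headers. Transcript shares were deposited as a percent. Symbols came from GENCODE M21 on mm10. For the 2 libraries, expected counts were rounded, scaled by TMM (edgeR 4.0.16) and tested with an exact conditional binomial test (scipy 1.17.1), since 1 library a side leaves no replicate for edgeR's quasi-likelihood test. Log2 ratios used a prior count of 0.5. Genes needed 10 counts over both libraries, of 20720537 and 28263730 in libraries 2 and 1. Intervals at 95% and the floor of 3 counts cover counting error only. GC content came from the main transcript of 96 of the 99 genes, and its trend was fitted by lowess over a 20% span on genes of at least 100 counts (statsmodels 0.14.6). Shared sequence was searched with blastn 2.17.0. DESeq2 1.42.0 size factors and the settings in the closing section were alternatives.

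The members and lists were chosen with earlier results of these data known. Genes named are those of mean TPM at least 10, the role lists, the leading gene of each cluster, the 5 largest ratios each way and genes at 0. Genes named for their transcripts, motif or call after trend removal were chosen after their values were seen. The interval bounds of TPM, a signal scaled like TPM, were deposited by the authors with no stated level, and were used in 1 alternative. TPM lay above its own upper bound in 12 members in library 2 and 5 in library 1.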

Additional observations from a re-analysis of the deposited data

How the results depend on the processing

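No paired analysis was possible because there is 1 group with 2 technical libraries. Removing the GC trend left 3 members called toward library 2 (background 11.4% of all genes) and 3 toward library 1 (background 10.9%). Scaling by total counts left 4 toward library 1 (background 4.62%). With total counts the median log2 ratio of the members turned to 0.45. DESeq2 size factors, leaving out mitochondrial genes and posterior mean counts kept the counts at 15 and 18, and a minimum of 50 counts gave 11 and 12. For these settings the share over all genes is not given, so the counts are not read as particular to the family. Of 35 named log2 ratios, 34 had a GC value, and 8 of these changed sign with the GC trend removed. Of the 8, 4 had been called, Cyp2s1 (-0.53), Cyp27b1 (-0.47), Cyp46a1 (-1.11) and Cyp2c68 (0.21), and 4 had not, Cyp4a14 (0.25), Cyp2e1 (0.13), Cyp20a1 (0.26) and Cyp11a1 (-0.40). In the same setting 17 lost their call, the 4 called genes of changed sign among them. With total counts 9 of the 35 lost it and 6 gained one, and 6 that had not been called changed sign. The causes were not tested. Without library 1 or library 2, the number of members at 1 TPM or more was 34 or 29, and the share of the 5 leading members, chosen again within each library, was 69.97% or 85.4%. Leaving mitochondrial genes and their copies out of the TPM sum gave 34 members at 1 TPM or more in both. It also turned the order of the family's share of TPM, which was 0.301% in library 2 and 0.179% in library 1 with them and 0.474% and 0.703% without. Members under 10 counts, 48 of 99, are too shallow for a ratio.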
